A study of Arabidopsis thaliana with 36 samples.

Results

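COR15A (AT2G42540), COR15B (AT2G42530), COR47 (AT1G20440), AT1G54410 and AT4G30650 are 5 cold-regulated genes of Arabidopsis thaliana, followed here through a light and dark cycle in RNA separated by its ribosome load. They were taken by name, each by its brightest probe set that matched a single gene, and each had 1 such probe set. The choice was made with earlier results of these data known, so their ranks and p-values describe these genes and are no independent test. Of 13355 genes that a probe set matched alone they are 5, and all 5 were among the 6845 genes bright enough to test (mean of at least 4 over the 36 arrays, log2). The samples were aerial parts of 10-day-old wild-type seedlings (Columbia) raised on agar with Murashige and Skoog salts and 1% sucrose, with 16 h of light and 8 h of dark. Harvests were made 0, 6, 12 and 18 h after the lights came on (Zeitgeber time, ZT), so only the ZT18 harvest lay in the dark phase. The growth temperature is not given in the sources used here, and no cold treatment is named. At each time RNA was separated into large polysomal, small polysomal and non-polysomal fractions with 3 replicates each, which makes 12 groups of 3 arrays. Seedlings overexpressing CCA1, which the series' design also names, were not analysed here, and the labels do not say whether the replicates were grown separately, so a p-value here reflects only how far these samples spread.

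COR genes are classical targets of the CBF transcription factors, which bind a short promoter element and are switched on by cold and gated by the circadian clock. COR15A and COR15B encode small hydrophilic proteins that are imported into chloroplasts and stabilise membranes during freezing. COR47 is an acidic dehydrin, a hydrophilic protein of the late embryogenesis abundant class that accumulates when cells lose water. AT1G54410 encodes a small dehydrin (HIRD11 in the list of dehydrin genes used here), and AT4G30650 is a low-temperature-responsive gene. In the order of the TAIR10.1 gene table COR15B and COR15A are neighbours on chromosome 2, AT4G30650 lies beside AT4G30660 on chromosome 4, and COR47 lies on chromosome 1 beside AT1G20450.

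The deposited values are log2 summaries of fluorescence per probe set, scaled so that each array has nearly the same distribution, so a value is relative to the mRNA of its own array and differences in total mRNA are not seen. The level of a transcript is the mean of the 3 fractions of an extract (a time and a replicate number), which gives the 3 fractions equal weight however much RNA each held. Loading is the difference, within an extract, of large polysomal RNA minus non-polysomal RNA. Replicate arrays correlated with r between 0.978 and 0.995. All 9 measured green tissue markers were bright (means of 9.92 to 14.1), and of the 3 measured root markers EXPA7 and EXPA18 lay at the floor of the table (2.20 and 2.22), while PYK10 averaged 9.95. Replicate 1 stood apart: its hybridisation controls and its plastid-encoded transcripts were the lowest of the 3 replicates in all 12 groups (10.2 to 11.3 for the controls, against 11.2 to 12.7 in the other replicates, log2). Without replicate 1, 111 of the 120 results for the 5 genes kept their side of the threshold and 9 lost their call, which were the loading of COR15A at each time (differences of 0.73 to 0.99), that of AT4G30650 at ZT18 (0.69), the 3 loading calls of AT1G54410 (adjusted p = 0.129 by the F test) and its course in large polysomal RNA (adjusted p = 0.0557). Most of these losses were not particular to replicate 1. The loading calls of AT1G54410 and its large polysomal course were also lost without replicate 2 and without replicate 3 (limma's F test of loading, adjusted p = 0.209 and 0.281). The call of AT4G30650 at ZT18 was also lost without replicate 2 (limma adjusted p = 0.0979), and those of COR15A at ZT12 and ZT18 without replicate 3 (0.139 and 0.175). The calls of COR15A at ZT0 and ZT6 were lost only without replicate 1. Fewer cells that express a gene and less of its RNA per cell cannot be told apart in these whole aerial parts.

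The 3 transcripts with the widest daily range among all 6845 tested genes were AT4G30650, COR15A and COR15B. Their level was lowest at lights on, with means of 5.44 to 6.17 (log2), and about 100-fold higher at ZT12. At ZT18 in the dark it was 8.55- to 13.1-fold below ZT12. COR47 ran the same course with a smaller range. AT1G54410 was high at all 4 times, near the top of the scale in polysomal RNA by day, with a modest day increase. In contrast, the 5 transcripts differed widely in ribosome loading. COR47, AT1G54410 and COR15B were strongly enriched in large polysomes, and COR15A less so. Averaged over the 4 times, AT4G30650 had nearly equal values in the 3 fractions, each relative to the mRNA of its own arrays. Only at ZT18 was its large polysomal value called higher than its non-polysomal value.

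In large polysomal RNA, COR15A was at 6.94, 6.67 and 5.80 (log2) at ZT0, at 12.55, 12.44 and 12.31 at ZT6, at 12.63, 13.14 and 12.69 at ZT12 and at 9.09, 9.59 and 9.19 at ZT18. In small polysomal RNA its values were 5.06, 5.05 and 4.31 at ZT0, 10.88, 11.07 and 10.87 at ZT6, 11.40, 12.24 and 11.27 at ZT12 and 7.36, 8.26 and 6.98 at ZT18. In non-polysomal RNA they were 4.97, 5.68 and 4.83 at ZT0, 10.87, 11.66 and 11.32 at ZT6, 11.22, 12.83 and 11.54 at ZT12 and 8.07, 9.01 and 7.95 at ZT18. The ZT0 arrays were lowest and the ZT18 arrays next in every fraction, with no overlap between these times and the day, while ZT6 and ZT12 overlapped in non-polysomal RNA. The level of COR15A averaged 5.48 ± 0.44 at ZT0, 11.55 ± 0.15 at ZT6, 12.11 ± 0.55 at ZT12 and 8.39 ± 0.49 at ZT18 (log2, SD, n = 3). On the linear scale of these values ZT0 stood at 1.01% of ZT12, ZT6 at 68.1% and ZT18 at 7.61%.

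COR15B, the neighbouring paralogue, had large polysomal values of 7.68, 7.83 and 6.99 at ZT0, 12.67, 12.48 and 12.49 at ZT6, 13.86, 13.49 and 13.65 at ZT12 and 10.92, 10.94 and 10.95 at ZT18 (log2). Its small polysomal values were 6.37, 5.93 and 5.22 at ZT0, 11.27, 10.90 and 10.98 at ZT6, 12.73, 12.60 and 12.24 at ZT12 and 9.48, 9.53 and 9.45 at ZT18. Its non-polysomal values were 4.90, 5.57 and 5.07 at ZT0, 10.02, 10.78 and 10.65 at ZT6, 12.09, 12.18 and 11.89 at ZT12 and 8.21, 8.87 and 8.53 at ZT18. No time overlapped another in any of the 3 fractions, in the order ZT0, ZT18, ZT6 and ZT12 from low to high. The level averaged 6.17 ± 0.37 at ZT0, 11.36 ± 0.04 at ZT6, 12.75 ± 0.15 at ZT12 and 9.65 ± 0.12 at ZT18 (log2, SD, n = 3). COR15B at ZT6 was at 38.2% of its ZT12 level on the linear scale, and ZT0 was at 1.05%. The probe sets of COR15A and COR15B each match a single gene in the probe table, but whether either also binds the other paralogue's RNA was not tested.

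AT4G30650 had large polysomal values of 5.83, 5.62 and 4.96 at ZT0, 10.59, 11.10 and 10.57 at ZT6, 12.03, 12.00 and 12.42 at ZT12 and 8.84, 8.85 and 9.25 at ZT18 (log2). Its small polysomal values were 5.83, 5.22 and 4.97 at ZT0, 11.04, 10.71 and 10.65 at ZT6, 12.44, 12.27 and 12.27 at ZT12 and 9.03, 8.43 and 9.14 at ZT18. Its non-polysomal values were 5.70, 5.76 and 5.09 at ZT0, 10.35, 11.20 and 10.55 at ZT6, 12.14, 12.17 and 12.01 at ZT12 and 8.05, 8.03 and 8.70 at ZT18. The 4 times were again fully separated in each fraction, whereas the large polysomal and non-polysomal arrays overlapped at ZT0, ZT6 and ZT12. The level averaged 5.44 ± 0.40 at ZT0, 10.75 ± 0.22 at ZT6, 12.20 ± 0.04 at ZT12 and 8.70 ± 0.30 at ZT18 (log2, SD, n = 3). ZT0 was at 0.926% of the ZT12 level on the linear scale and ZT18 at 8.87%.

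COR47 started the day from a higher value, with large polysomal values of 10.12, 9.78 and 10.13 at ZT0, 12.34, 12.03 and 12.28 at ZT6, 12.32, 12.35 and 12.49 at ZT12 and 10.99, 10.92 and 11.37 at ZT18 (log2). Small polysomal RNA held 8.28, 8.58 and 8.57 at ZT0, 10.56, 10.37 and 10.47 at ZT6, 10.86, 11.00 and 10.87 at ZT12 and 8.70, 9.87 and 9.73 at ZT18. Non-polysomal RNA held 7.32, 7.25 and 7.40 at ZT0, 9.20, 9.06 and 9.35 at ZT6, 9.88, 10.53 and 10.04 at ZT12 and 8.37, 9.40 and 8.86 at ZT18. The ZT0 arrays were lowest in every fraction without overlap, ZT6 and ZT12 overlapped in large polysomal RNA, and ZT6 and ZT18 overlapped in non-polysomal RNA. The level of this dehydrin averaged 8.60 ± 0.09 at ZT0, 10.63 ± 0.12 at ZT6, 11.15 ± 0.14 at ZT12 and 9.80 ± 0.39 at ZT18 (log2, SD, n = 3), so that ZT0 was at 17.1% and ZT18 at 39.3% of ZT12 on the linear scale.

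AT1G54410 had large polysomal values of 13.75, 13.97 and 13.62 at ZT0, 14.26, 14.37 and 14.47 at ZT6, 14.35, 14.37 and 14.32 at ZT12 and 13.81, 13.85 and 14.02 at ZT18 (log2). Its small polysomal values were 12.84, 12.72 and 12.94 at ZT0, 14.17, 14.01 and 14.27 at ZT6, 14.05, 13.81 and 13.91 at ZT12 and 13.03, 12.68 and 12.72 at ZT18. Its non-polysomal values were 10.11, 10.54 and 10.71 at ZT0, 11.80, 12.78 and 12.47 at ZT6, 12.08, 12.60 and 12.51 at ZT12 and 10.81, 11.46 and 11.10 at ZT18. ZT6 and ZT12 overlapped in every fraction and lay above ZT0 and ZT18, which overlapped in both polysomal fractions. In large polysomal RNA the probe set of this small dehydrin was near the top of the scale, with 1 to 30 probe sets of the array above it, against 149 to 1430 in non-polysomal RNA. In small polysomal RNA 8 to 138 probe sets were above this one, with 8 to 19 at ZT6 and 14 to 23 at ZT12. The part of these positions in its narrow large polysomal range, and in its differences between fractions and times, was not tested. The level averaged 12.35 ± 0.11 at ZT0, 13.62 ± 0.19 at ZT6, 13.56 ± 0.05 at ZT12 and 12.61 ± 0.06 at ZT18 (log2, SD, n = 3).

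**Figure D1:**
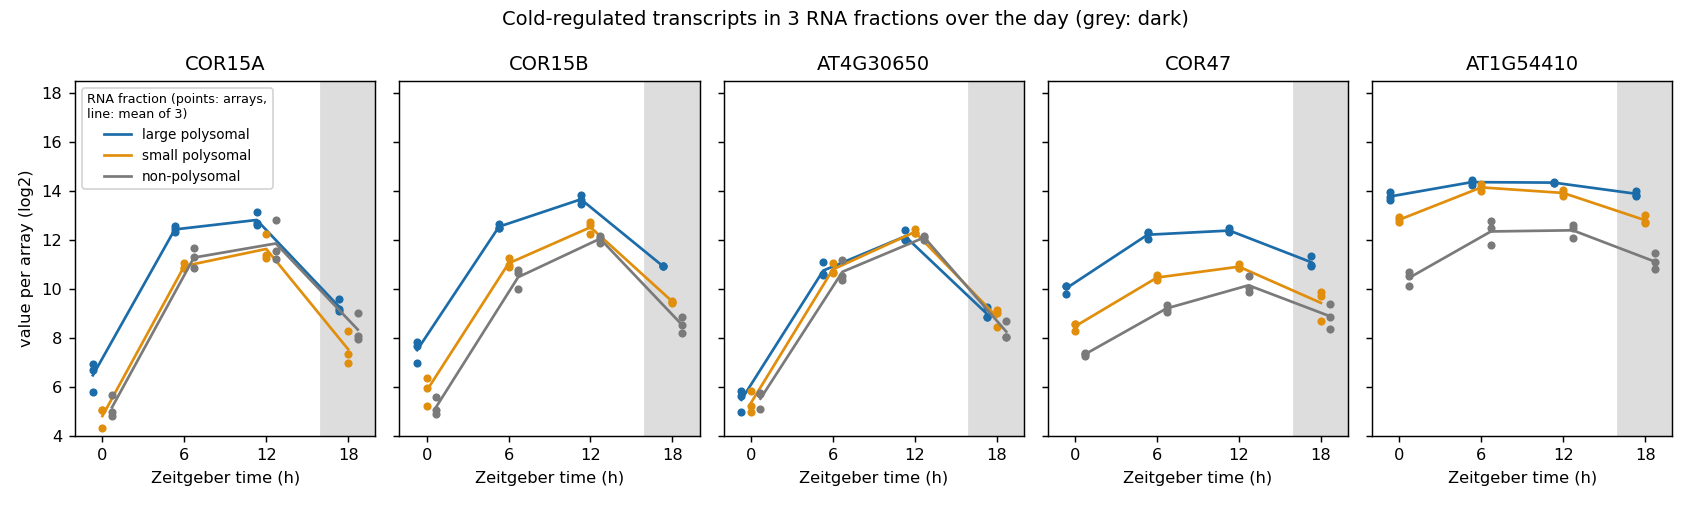
Value per array (y axis, log2) against Zeitgeber time (x axis, hours) for each of the 5 genes, with large polysomal, small polysomal and non-polysomal RNA in separate colours; points are arrays, lines join means of 3 arrays, and grey marks the dark phase. COR15A, COR15B and AT4G30650 climbed steeply between ZT0 and ZT12 in each fraction, the 3 lines of AT4G30650 nearly coincide, and AT1G54410 stayed above 13.6 in large polysomal RNA.

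By limma's F test the level of all 5 genes differed between the 4 times, as it did for 58.1% of all tested genes. The level at ZT12 was higher than at ZT0 for all 5 genes, by limma and a Benjamini-Hochberg adjustment over all 6845 tested genes (adjusted p under 0.05, used for every call here). Of all tested genes 18.4% were called higher in that comparison. AT4G30650 was 107.9-fold higher (95% interval 79.7 to 146.2, limma adjusted p = 6.11e-11), which ranked highest among all tested genes in that comparison. COR15A followed at 98.8-fold (63.4 to 153.9, limma adjusted p = 2.39e-09) and COR15B at 95.3-fold (74.1 to 122.5, limma adjusted p = 1.98e-11), and the intervals of these 3 genes overlapped. At ZT0, 6558 to 12131 probe sets of an array were above COR15A and 8908 to 10955 above AT4G30650. For COR15B these were 4672 to 10765. The part of these low ZT0 values in the size of the folds was not tested. COR47 rose 5.84-fold (4.50 to 7.58, limma adjusted p = 1.45e-07) and AT1G54410 rose 2.30-fold (1.90 to 2.78, limma adjusted p = 8.75e-06). The median over the 5 genes was 6.57 (log2), against 0.01 over all tested genes.

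On the log2 scale most of the increase lay between ZT0 and ZT6. At ZT6 all 5 genes were above ZT0 (19.5% of all tested genes were called higher), by 67.3-fold for COR15A, 39.6-fold for AT4G30650, 36.4-fold for COR15B, 4.08-fold for COR47 and 2.41-fold for AT1G54410. Between ZT6 and ZT12 only COR15B and AT4G30650 among the 5 were called higher (6.91% of all tested genes were). COR15B was 2.62-fold higher at ZT12 than at ZT6 (limma adjusted p = 9.10e-05) and AT4G30650 2.72-fold higher (limma adjusted p = 2.95e-04). COR15A differed by 0.55 ± 0.30 (log2, SE; 95% interval -0.09 to 1.19, limma adjusted p = 0.253) and AT1G54410 by -0.07 ± 0.13 (-0.34 to 0.21, limma adjusted p = 0.792). COR47 differed by 0.52 ± 0.17 (0.14 to 0.90, limma adjusted p = 0.0662), which became a call without ZT18 replicate 1 (adjusted p = 0.0158). That extract is not part of the difference, which stayed at 0.519 without it. With each extract left out in turn, 11 of 12 fits did not call the difference (highest limma adjusted p = 0.195).

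At ZT18, 2 h into the dark phase by the lighting schedule, all 5 levels were below ZT12, and 14.3% of all tested genes were called lower. COR15A was 13.1-fold lower at ZT18 than at ZT12 (95% interval 8.43 to 20.5), with the lowest difference of all tested genes in this comparison. AT4G30650 was 11.3-fold lower (8.32 to 15.3), COR15B 8.55-fold lower (6.65 to 11.0), COR47 2.55-fold lower (1.96 to 3.31) and AT1G54410 1.93-fold lower (1.60 to 2.33). At ZT18 COR15B was nonetheless 11.1-fold, AT4G30650 9.58-fold, COR15A 7.52-fold and COR47 2.29-fold above ZT0, all 4 called, against 14.7% of all tested genes called higher. AT1G54410 differed between ZT18 and ZT0 by 0.25 ± 0.13 (log2, SE; 95% interval -0.02 to 0.53, limma adjusted p = 0.143).

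ZT6 and ZT18 share no arrays with ZT12 and ZT0, and in that separate comparison all 5 levels were higher at ZT6 than at ZT18 (20.4% of all tested genes). COR15A was 8.95-fold higher, AT4G30650 4.14-fold, COR15B 3.27-fold, AT1G54410 2.02-fold and COR47 1.78-fold. The order of the levels from low to high was thus ZT0, ZT18, ZT6 and ZT12 for COR15A, COR15B, COR47 and AT4G30650. The neighbours ZT6 and ZT12 did not pass the test for COR15A and COR47, nor did ZT6 and ZT12 or ZT18 and ZT0 for AT1G54410, whose highest mean was at ZT6.

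The range of the level over the day, the highest minus the lowest of the 4 time means, was 6.75 for AT4G30650, 6.63 for COR15A and 6.57 for COR15B (log2), the widest 3 of the 6845 tested genes. COR47 had a range of 2.55 and ranked 183rd, and AT1G54410 had a range of 1.27 and ranked 1076th. The median over all tested genes was 0.63, and 15 genes (0.219%) exceeded a range of 5. The pattern of a maximum at ZT12 and a minimum at ZT0, which 4 of the 5 genes had, was found in 664 tested genes (9.70%). Spike-in poly-A controls averaged 5.06 at ZT0, 4.50 at ZT6, 4.98 at ZT12 and 5.49 at ZT18 (log2), a span of less than 1. The excess of the 3' over the 5' actin probe set averaged 6.90 ± 0.05 at ZT0, 7.78 ± 0.32 at ZT6, 7.90 ± 0.19 at ZT12 and 7.47 ± 0.26 at ZT18 (log2, SD, n = 3), lowest at ZT0 without overlap and in the same order of means as the levels of COR15A, COR15B, COR47 and AT4G30650. The part of these shifts in the level differences was not tested.

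**Figure D2:**
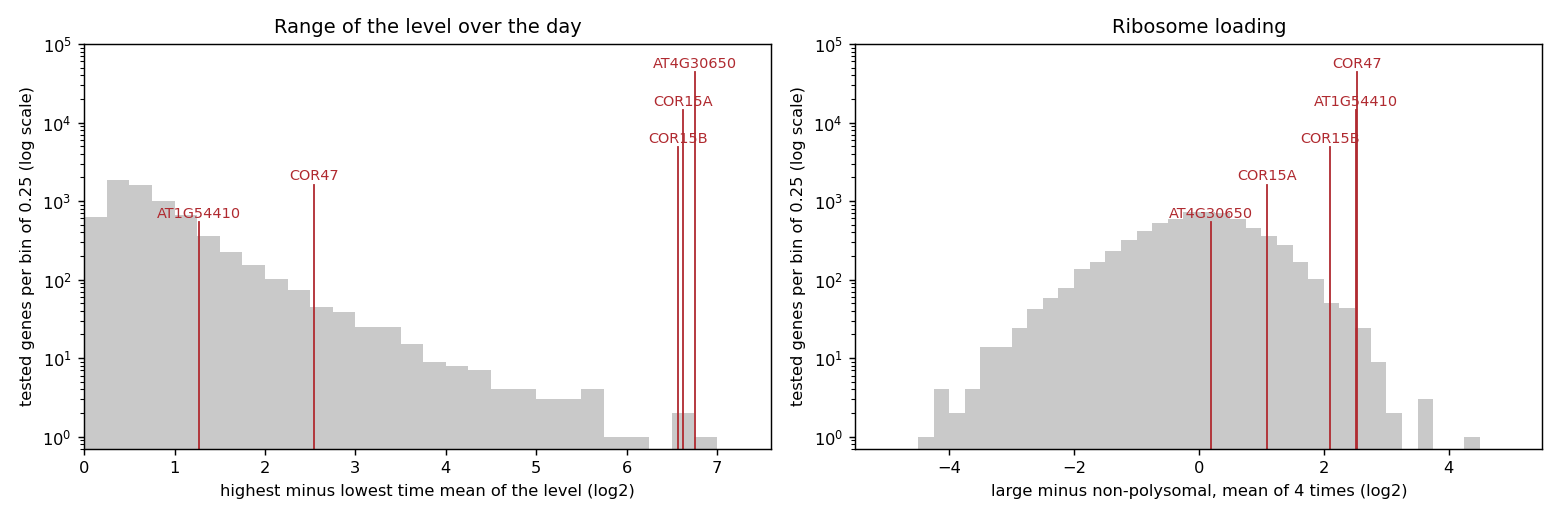
Number of tested genes per bin of 0.25 (y axis, log scale) by range of the level over the day (left, log2) and by loading, large polysomal minus non-polysomal RNA over the 4 times (right, log2); red lines mark the 5 genes and their heights carry no value. AT4G30650, COR15A and COR15B stand at 6.57 to 6.75 at the upper end of the range, and COR47 and AT1G54410 at 2.54 and 2.52 near the upper end of loading, with AT4G30650 at 0.19 in the middle.

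In loading, 4 of the 5 genes were called enriched in large polysomes over non-polysomal RNA across the 4 times, where 40.2% of all tested genes were called higher and 37.5% lower. COR47 was 5.80-fold higher (95% interval 4.92 to 6.85, limma adjusted p = 3.71e-18), ranking 34th of 6845, and AT1G54410 was 5.72-fold higher (4.96 to 6.60, limma adjusted p = 1.34e-19), ranking 36th. COR15B was 4.28-fold higher (3.60 to 5.09, limma adjusted p = 7.58e-16) and ranked 109th, and COR15A was 2.13-fold higher (1.64 to 2.77, limma adjusted p = 3.46e-06) and ranked 899th. In these 4 genes the difference was above 0 in 12 of 12 extracts. AT4G30650 differed by 0.19 ± 0.13 (log2, SE; 95% interval -0.07 to 0.46, limma adjusted p = 0.177) and was above 0 in 7 of 12 extracts. With cyclic loess normalisation AT4G30650 was called higher, at 0.29 (limma adjusted p = 0.0402).

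The small polysomal fraction set the same genes apart in another way. AT1G54410 was 3.60-fold higher in small polysomes, relative to non-polysomal RNA, and ranked 17th of all tested genes, COR47 was 1.91-fold and COR15B 1.58-fold higher, and all 3 were called (33.5% of all tested genes were called higher). COR15A was lower in small polysomes, relative to non-polysomal RNA, by -0.43 ± 0.18 (log2, SE; limma adjusted p = 0.0421, below 0 in all but 3 of 12 extracts), where 29.2% of all tested genes were called lower. This call was lost with cyclic loess (-0.36, adjusted p = 0.113), without the filter on dim genes (adjusted p = 0.0962) and without any of 7 single extracts, namely replicates 2 and 3 of ZT0 and of ZT6, replicate 3 of ZT12 and replicates 1 and 3 of ZT18 (highest adjusted p = 0.0889). AT4G30650 differed by 0.19 ± 0.13 (limma adjusted p = 0.211).

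Between the polysome sizes, COR47, COR15A, COR15B and AT1G54410 were higher in large than in small polysomal RNA (30% of all tested genes). The fold was 3.04 for COR47, 2.88 for COR15A, 2.71 for COR15B and 1.59 for AT1G54410, and the first 3 of these ranked 23rd, 35th and 49th of 6845. For AT4G30650 the difference was 0.00 ± 0.13 (log2, SE; 95% interval -0.26 to 0.27, limma adjusted p = 0.982). By these means COR15A was lowest in small polysomal RNA, COR15B and COR47 stepped down over large polysomal, small polysomal and non-polysomal RNA, and AT1G54410 was high in both polysomal fractions and lower outside them.

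The fractions also differed in control probe sets. Relative to non-polysomal RNA, poly-A controls were lower in large polysomes by -1.61 ± 0.73 (log2, SD, n = 12 extracts, below 0 in 12 of 12), and hybridisation controls by -0.75 ± 0.22. Actin probe sets at the 3' end exceeded those at the 5' end by more in large polysomes than in the non-polysomal fraction of the same extract, by 0.93 ± 0.34 (12 of 12 extracts). The part of these differences in the loading values was not tested.

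By time, COR15B had a loading of 2.78, 2.25 and 1.92 (log2) in the 3 extracts of ZT0, 2.65, 1.70 and 1.84 at ZT6, 1.76, 1.30 and 1.76 at ZT12 and 2.71, 2.07 and 2.42 at ZT18. COR47 had 2.79, 2.53 and 2.73 at ZT0, 3.14, 2.97 and 2.93 at ZT6, 2.44, 1.82 and 2.45 at ZT12 and 2.62, 1.51 and 2.51 at ZT18. Both were called enriched in large polysomes at each time (29.1% of all tested genes at ZT0, 28.7% at ZT6, 28.2% at ZT12 and 29% at ZT18), and for neither did loading differ between the 4 times by limma's F test (adjusted p = 0.463 for COR15B and 0.355 for COR47). The loading of COR47 at ZT6 minus ZT18 was 0.80 ± 0.33 (log2, SE; adjusted p = 0.161) and became a call without ZT18 replicate 1 (1.00, adjusted p = 0.0386), where 0.672% of all tested genes were called higher with all extracts. With each extract left out in turn this difference was between 0.45 and 1.00. It was not called in 11 of these 12 fits (highest limma adjusted p = 0.470).

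COR15A had a loading of 1.97, 0.99 and 0.98 (log2) in the extracts of ZT0, 1.69, 0.78 and 0.99 at ZT6, 1.42, 0.32 and 1.15 at ZT12 and 1.03, 0.58 and 1.24 at ZT18. All 12 values were above 0, and the times overlapped. The mean was called at each time, with limma adjusted p of 0.00329 at ZT0, 0.00830 at ZT6, 0.0274 at ZT12 and 0.0300 at ZT18, and did not differ between times by limma's F test (adjusted p = 0.964). Each of these calls rested on single extracts: the adjusted p was 0.0795 without ZT0 replicate 1 and 0.118 without ZT6 replicate 1, and reached 0.185 without replicate 1 or 3 of ZT12 and 0.147 without replicate 1 or 3 of ZT18. The calls at ZT12 and ZT18 were also lost without the filter on dim genes (adjusted p = 0.0683 and 0.0704).

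AT4G30650 had a loading of 0.14, -0.14 and -0.14 (log2) at ZT0, 0.24, -0.11 and 0.02 at ZT6, -0.11, -0.17 and 0.41 at ZT12 and 0.79, 0.82 and 0.55 at ZT18. The ZT18 values lay above those of the other times without overlap, and ZT18 was the only time at which its large polysomal value was called higher, at 1.65-fold (95% interval 1.14 to 2.38, limma adjusted p = 0.0204). Loading at ZT18 minus ZT0 was 0.77 ± 0.37 (log2, SE; 95% interval 0.01 to 1.52, limma adjusted p = 0.543), and limma's F test over the 4 times gave an adjusted p of 0.531, so a change of its loading over the day was not called. The call at ZT18 was lost without ZT18 replicate 1 (adjusted p = 0.0864) and without ZT18 replicate 2 (adjusted p = 0.0826). Plastid-encoded transcripts were spread widely over the ZT18 extracts (7.22 to 10.6, log2) and were lowest in replicate 1. The part of this spread in the loading of AT4G30650 was not tested.

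AT1G54410 was the only gene of the 5 whose loading differed between the 4 times (limma's F test, adjusted p = 0.00982), as it did for 2.85% of all tested genes. Its loading was 3.64, 3.43 and 2.91 (log2) in the extracts of ZT0, 2.46, 1.59 and 2.00 at ZT6, 2.27, 1.77 and 1.81 at ZT12 and 3.00, 2.39 and 2.92 at ZT18. ZT0 lay above ZT6 and ZT12 without overlap, and ZT18 lay above ZT12 and overlapped ZT6. Loading was lower at ZT12 than at ZT0 by -1.38 ± 0.29 (log2, SE; 2.60-fold, limma adjusted p = 0.0289), where 0.0292% of all tested genes were called lower, and lower at ZT6 than at ZT0 by -1.31 ± 0.29 (2.48-fold, adjusted p = 0.0193), where 0.847% were. Of the genes called in that ZT6 comparison 26.6% were higher, against 48.6% with median centring and 54.3% with cyclic loess. Its large polysomal value was 0.57 higher at ZT12 than at ZT0, against 1.09 in small polysomal and 1.95 in non-polysomal RNA.

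The calls of these loading changes of AT1G54410 were lost without some single extracts, while the changes themselves kept their direction. The ZT12 change was between -1.59 and -1.22 when each extract was left out in turn. Its call was lost without any replicate of ZT0 or ZT12, ZT6 replicate 3 or ZT18 replicate 3 (highest adjusted p = 0.206). ZT6 replicate 3 and ZT18 replicate 3 are not part of that difference, which stayed at -1.378 without either. The ZT6 change was between -1.53 and -1.10, and its call was lost without replicate 1 or 2 of ZT0 or replicate 2 or 3 of ZT6 (highest adjusted p = 0.160). The F test was lost without ZT0 replicate 1 (adjusted p = 0.0568) and ZT6 replicate 3 (0.0580). Cyclic loess left changes of -1.19 (adjusted p = 0.0930) and -1.01 (0.0904).

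**Figure D3:**
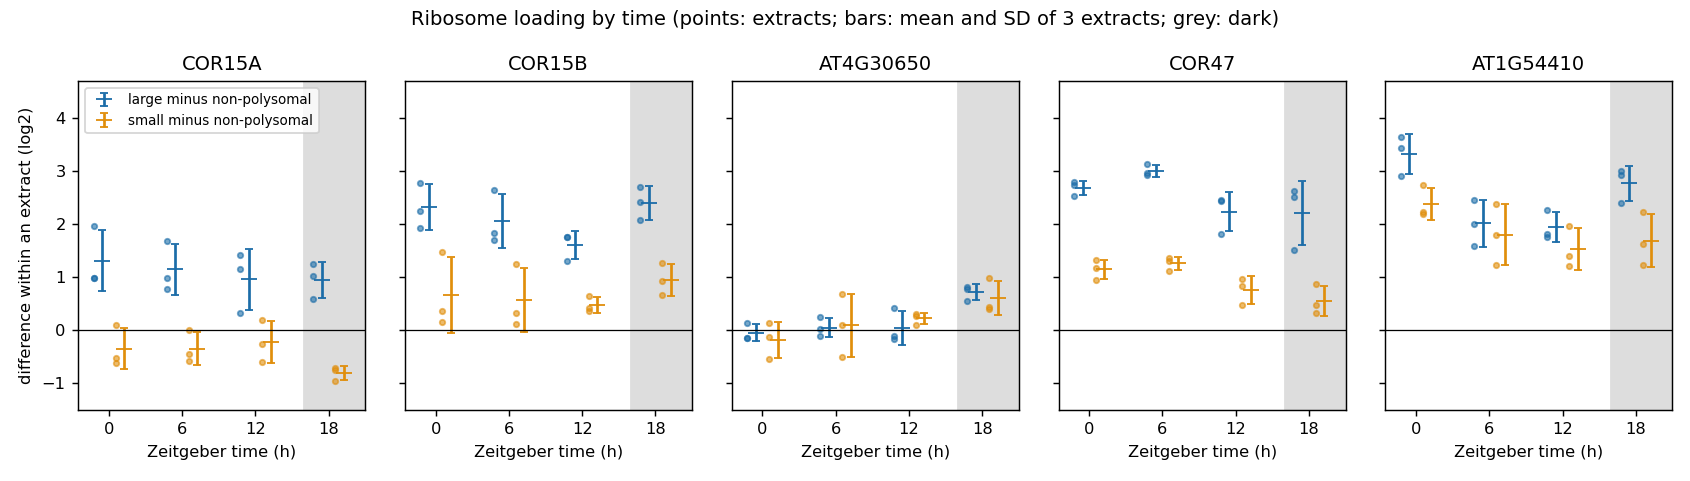
Difference within an extract (y axis, log2) against Zeitgeber time (x axis, hours) for large minus non-polysomal and small minus non-polysomal RNA; points are extracts, bars are the mean and SD of 3 extracts, and grey marks the dark phase. Large polysomal loading of AT1G54410 was highest at ZT0 (mean 3.33) and lower at ZT6 and ZT12 (2.02 and 1.95), AT4G30650 lay near 0 except at ZT18 (0.72), and the small polysomal difference of COR15A lay below 0 in all but 3 extracts.

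Each transcript's daily course was seen in every fraction. Limma's F test over the 4 times was called for all 5 genes in large polysomal RNA (45.1% of all tested genes), in small polysomal RNA (46.4%) and in non-polysomal RNA (51.6%). The weakest of these was AT1G54410 in large polysomal RNA (adjusted p = 0.0250), which lost the call without ZT0 replicate 1 (0.0546), ZT0 replicate 3 (0.0750) or ZT6 replicate 3 (0.0691). COR15A was higher at ZT12 than at ZT0 by 6.35 in large polysomal, 6.83 in small polysomal and 6.70 in non-polysomal RNA (log2). For COR15B these differences were 6.17, 6.68 and 6.88, for AT4G30650 6.68, 6.99 and 6.59, and for COR47 2.38, 2.44 and 2.82, in the same order of fractions. The loading changes between ZT12 and ZT0, which are the differences between the large polysomal and non-polysomal swings, were not called for these 4 genes (limma adjusted p between 0.726 and 0.997). Their 95% intervals, which are not adjusted for the number of genes, together reached from -1.42 to 0.84. That of COR15B was wholly negative (-0.71, interval -1.42 to -0.0036), and those of COR15A, COR47 and AT4G30650 held both signs. COR15B was also near the top of the scale in large polysomal RNA at ZT12, with 23 to 35 probe sets of the array above it. The part of that position in its difference was not tested.

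**Figure D4:**
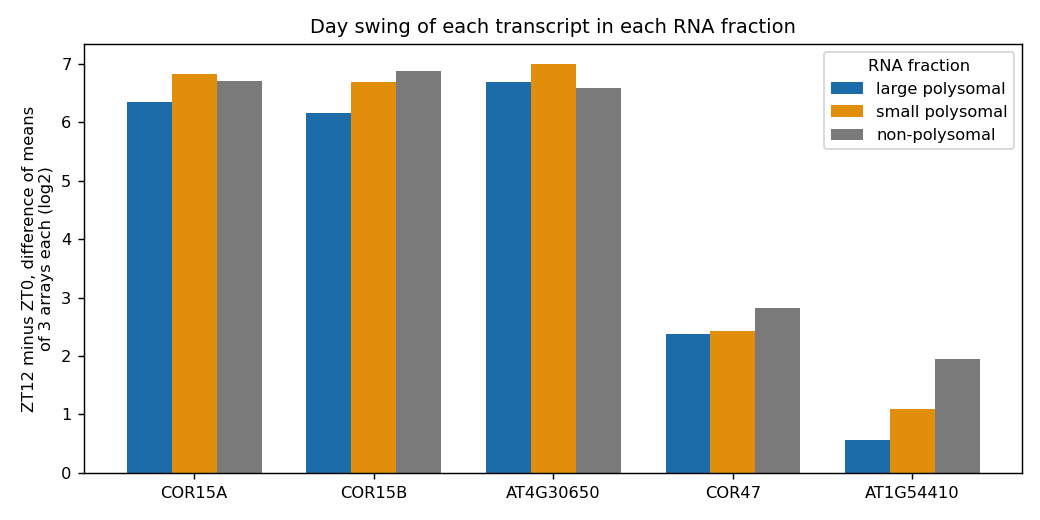
Difference between ZT12 and ZT0 (y axis, log2, ZT12 minus ZT0, means of 3 arrays each) for each gene in large polysomal, small polysomal and non-polysomal RNA. Bars of COR15A, COR15B and AT4G30650 lie between 6.17 and 6.99, and those of AT1G54410 are 0.57, 1.09 and 1.95.

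Over the 12 group means the profiles of COR15A and COR15B correlated with r = 0.963, those of COR15A and AT4G30650 with 0.959 and those of COR15B and AT4G30650 with 0.948. COR47 was closest to COR15B (0.876) and AT1G54410 (0.868), and the lowest value among the pairs was 0.449, between AT1G54410 and AT4G30650. These correlations describe profiles that share the same 36 arrays. Outside the 5 genes, the profiles most like COR15A by this measure were AT5G39790 (0.992), AT1G67660 (0.990) and AT3G02630 (0.977), with level ranges of 1.75, 1.93 and 1.46 (log2) against 6.63 for COR15A. Those most like COR15B were AT5G18130 (0.978), AT1G51610 (0.970) and AT4G16146 (0.970), the last with a level range of 5.51. For COR47 they were AT5G59540 (0.984), AT5G54970 (0.984) and AT3G04550 (0.982), and for AT1G54410 they were AT2G23120 (0.980), AT3G16370 (0.978) and AT1G55460 (0.966). AT4G30650 was most like DPE1 (0.988), which codes for a plastid enzyme of starch breakdown, its neighbour AT4G30660 (0.986) and AT2G43550 (0.982). When r was taken over the 36 single arrays, 2 of the 3 genes were kept for COR15B and AT4G30650, 1 for COR15A and AT1G54410 and 0 for COR47.

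Of 10 listed dehydrin genes 6 had a probe set of their own and 3 were tested, namely COR47, AT1G54410 and LTI30, a dehydrin induced by cold and abscisic acid. LTI30 had levels of 4.75 ± 0.28 at ZT0, 7.95 ± 0.17 at ZT6, 7.29 ± 0.41 at ZT12 and 5.0 ± 0.15 at ZT18 (log2, SD, n = 3). It was highest at ZT6, higher at ZT12 than at ZT0 by 2.54 ± 0.20 (SE, limma adjusted p = 5.76e-07) and lower at ZT12 than at ZT6 by -0.66 ± 0.20 (adjusted p = 0.0427). Like COR47 and AT1G54410 it was enriched in large polysomes over non-polysomal RNA, by 1.79 ± 0.13 (adjusted p = 2.84e-13), so all 3 tested dehydrins were called in that direction, as were 40.2% of all tested genes. The other 3 dehydrin genes with a probe set (AT2G21490, AT4G38410 and AT4G39130) had time means of 2.20 to 2.62, at or near the floor of the table.

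Of 8 listed genes of the RCI2 family, to which the list assigns AT4G30650, 5 had a probe set and 3 were tested. AT4G30660 had levels of 7.54 ± 0.14 at ZT0, 11.99 ± 0.02 at ZT6, 12.48 ± 0.15 at ZT12 and 10.01 ± 0.60 at ZT18 (log2, SD, n = 3). It was higher at ZT12 than at ZT0 by 4.95 ± 0.23 (SE, limma adjusted p = 2.80e-09), and its loading was -0.31 ± 0.14 (adjusted p = 0.0483), beside 0.19 for AT4G30650. AT2G24040 went the other way, with levels of 8.19 ± 0.09 at ZT0, 7.77 ± 0.25 at ZT6, 7.64 ± 0.21 at ZT12 and 7.95 ± 0.19 at ZT18 and a difference between ZT12 and ZT0 of -0.55 ± 0.16 (adjusted p = 0.0173), and it was depleted from large polysomes relative to non-polysomal RNA (-0.71 ± 0.12, adjusted p = 3.79e-06).

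Of 20 other listed cold-regulated effectors 4 had a probe set and all 4 were tested: COR15A, COR15B, COR27 and AT4G33980. COR27, a small gene regulated by cold and the clock, had levels of 7.98 ± 0.46 at ZT0, 5.85 ± 0.55 at ZT6, 11.00 ± 0.18 at ZT12 and 9.21 ± 0.27 at ZT18 (log2, SD, n = 3), and AT4G33980 had 4.46 ± 0.37, 4.14 ± 0.46, 8.44 ± 0.07 and 6.88 ± 0.30 at the same times. Both had their highest mean at ZT12. COR27 was lower at ZT6 than at ZT0 by -2.13 ± 0.27 (SE, limma adjusted p = 4.29e-05), whereas AT4G33980 differed between these times by -0.32 ± 0.24 (adjusted p = 0.316). COR27 was higher at ZT12 than at ZT6 by 5.15 ± 0.27 (limma adjusted p = 8.32e-08) and AT4G33980 by 4.30 ± 0.24 (adjusted p = 8.38e-08). Both were depleted from large polysomes relative to non-polysomal RNA, COR27 by -2.29 ± 0.16 (adjusted p = 9.53e-14) and AT4G33980 by -1.17 ± 0.15 (adjusted p = 4.35e-08), so within this list 2 genes were called higher and 2 lower, beside 40.2% and 37.5% of all tested genes. The 14 listed regulators of cold signalling, the CBF genes among them, were not analysed here, since 0 of them were matched alone by a probe set in the table used. Of 11 listed clock genes 1 was matched, GI, a component of the circadian clock, with levels of 2.23 ± 0.03 at ZT0, 6.71 ± 0.21 at ZT6, 5.42 ± 0.47 at ZT12 and 2.25 ± 0.08 at ZT18.

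**Figure D5:**
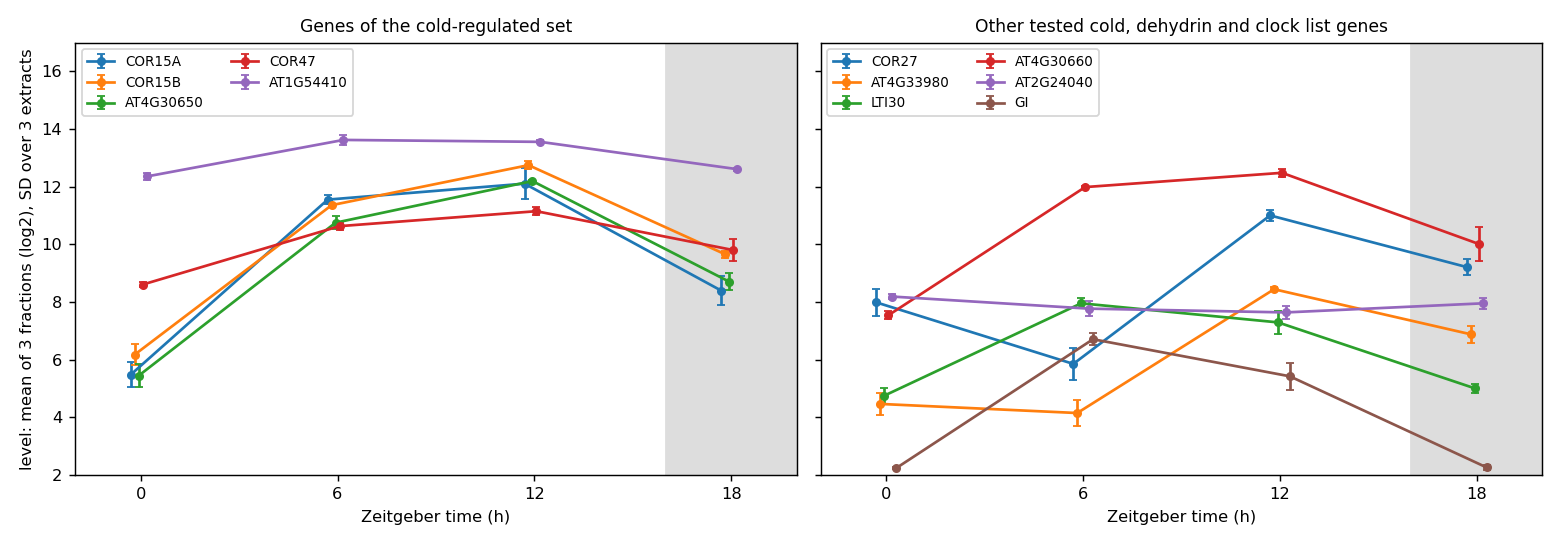
Level (y axis, log2, mean of the 3 fractions, bars are the SD over 3 extracts) against Zeitgeber time (x axis, hours) for the 5 genes (left) and for the other tested genes of the dehydrin, RCI2, cold effector and clock lists (right); grey marks the dark phase. On the left all 5 genes are lowest at ZT0, and on the right AT4G30660 runs a like course, COR27 has its lowest mean at ZT6 (5.85), and AT2G24040 stays between 7.64 and 8.19.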

How the data were processed

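Polysome-fractionated RNA of 36 samples was measured on Affymetrix arrays after oligo(dT) priming, per the labels' protocols. The authors deposited 1 log2 value per probe set and array, computed with GCRMA (affy 1.42.3, R 3.1), per the submitters' processing notes. Of 22810 probe sets 64 were controls, 13513 matched 1 gene, 503 several, and 8730 were not listed. Gene names came from a TAIR10.1 gene table, which matched 6822 of 6845 tested genes, and 6510 dim genes were left out. For fractions, limma was fitted to 36 arrays in 12 groups, and for levels to 12 extracts (limma 3.58.1, R 4.3.3), with 2-sided Benjamini-Hochberg adjusted p over all tested genes. The script was tested on simulated data. The 5 genes and the lists were chosen with earlier results of these data known. Named from each list were up to 4 tested genes with the largest differences, and for each of the 5 genes the 3 with the most similar profile. Deviations from group means correlated between fractions of an extract in all 36 pairs (r 0.130 to 0.683). Replicate numbers were therefore taken to pair the fractions, a pairing that the main fits do not use. Whether a difference shared by all arrays of a replicate number gives these correlations was not tested. Alternatives were median centring, cyclic loess, other filters, a trended robust variance, the median probe set, levels from linear values, replicate blocks and extracts left out. Precision is limited by the number of arrays.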

Additional observations from a re-analysis of the deposited data

Results flagged for a closer look

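The loading of AT1G54410 differed between times by limma's test of that difference (F test adjusted p = 0.00982). Its loading at ZT12 minus ZT0 was -1.38 and at ZT6 minus ZT0 was -1.31 (log2), while its level was higher at ZT12 and at ZT6 than at ZT0. In large polysomal RNA 1 to 30 probe sets per array were brighter than this one, and the part of that position in the loading change was not tested.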

How the results depend on the processing

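Of the comparisons of single-gene results with an alternative, 2724 kept their side of the threshold (2157 differences and 567 F tests, which have no direction), 65 lost their call and 6 gained one. Of the 2157 differences 41 changed sign while called in neither fit, with main values of at most 0.20 (log2) in size. No level call was lost in any alternative run. With cyclic loess 0 of the 5 genes were called for a loading difference over the 4 times, at ZT12 against ZT0 and at ZT6 against ZT0, where the counts were 1 each, and AT1G54410 gained a call for its level at ZT18 against ZT0 (0.40, adjusted p = 0.0272). When replicates were left out, these 3 counts ran from 0 to 1, as did loading at ZT6 against ZT18, and large against non-polysomal RNA at ZT18 ran from 3 to 5. Without the 2 ZT18 extracts with high plastid signal, chosen after seeing the data, the ZT18 count was 3 and the F test count 0; that setting leaves 1 extract at ZT18, whose spread is taken from the other groups, and the differences that lost their call at ZT18 were not smaller (COR15A 1.03, AT4G30650 0.79). With a trended robust variance COR47 gained a call at ZT12 against ZT6 (adjusted p = 0.0499). With the extract as a replicate block (correlation 0.291) the loading counts were unchanged, 5 at ZT18 and 1 by the F test, and with the replicate number as a block over extracts 5 levels were called at ZT12 against ZT0; neither changed a call of the 5 genes. Across times, deviations of same-numbered extracts correlated with r of -0.114 to 0.622 in 18 pairs, so the numbers were not taken as pairs there, although replicate 1 had the lowest hybridisation controls in all 12 groups. Scaling shifted the median of all genes by less than 0.1 (log2), but moved the share of higher among called genes for loading at ZT6 against ZT18 (13.3%, against 23.6% with median centring and 27.2% with cyclic loess).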
